A study of Mus musculus with 12 samples.

Results

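Mouse neural progenitor cells that had lost lamin B1 were compared after 9 days of Cre virus with cells that kept it, to ask which genes outside the usual cell type, cell cycle and signalling markers differed. The comparison was chosen by its group labels alone: all 3 libraries labelled cKO at day 9 against all 3 labelled WT at day 9, 6 of the 12 libraries of the series. The cKO cells carried LaminB1fl/fl alleles together with the Ai3 reporter, and the WT cells carried LaminB1+/+ alleles together with the same reporter. Both were of the C57BL/6 strain and both received Lentivirus:pSox2-Cre, in which a Sox2 promoter drives Cre recombinase, so Cre and the virus were common to both groups. The growth medium was DMEM/F12 with modified N2/B27 supplements, EGF at 10 ng/ml and as much FGF-2, and EYFP-positive cells, those in which Cre had switched the reporter on, were sorted before RNA was taken. Because the sort selects cells with Cre activity, it does not itself select cells that lost both Lmnb1 alleles. Nothing in the labels ties the replicates to separate cultures or animals. The p-values therefore speak only to the spread among these samples, and that spread may be technical. No age or sex of the animals was in the labels.

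Lamin B1 is an intermediate filament protein that lines the inside of the nuclear envelope with the other lamins. The lamina anchors gene-poor, late-replicating chromatin to the nuclear edge, spaces the nuclear pores and carries inner membrane proteins such as the lamin B receptor. Neural progenitors of the developing forebrain need B-type lamins, and the amount of lamin B1 in neural cells declines as they leave the cell cycle.

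The libraries differed in how much structural RNA they held. Gm42418, a feature that overlaps ribosomal RNA sequence, and Lars2, a mitochondrial leucyl tRNA synthetase gene, took 59.0% and 9.63% of all counts in cKO replicate 1 and 57.1% and 10.3% in cKO replicate 3. In cKO replicate 2 they took 0.299% and 0.0440%, and in the WT libraries Gm42418 took 14.9%, 33.0% and 16.8% and Lars2 0.545%, 1.21% and 0.600%. Summed over 13 listed structural RNA features, the share was 69.8%, 0.350% and 68.4% in cKO and 15.8%, 34.6% and 17.8% in WT, so that the cKO libraries lie on both sides of the WT libraries. What remained outside those features was 4025031, 22907885 and 4330734 counts in cKO and 20564384, 16126926 and 20151363 counts in WT. The precision of cKO replicates 1 and 3 for genes of low level is therefore the lowest, and each value is given by library below.

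**Figure D1:**
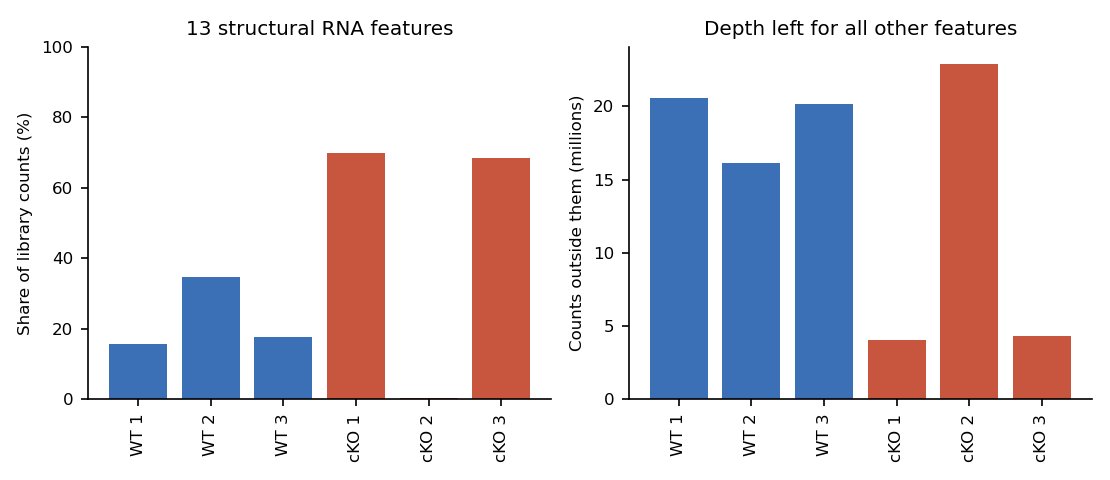
Bars give, for each day 9 library, the share of counts on 13 structural RNA features (left, percent) and the counts left outside them (right), WT in blue and cKO in red. cKO replicates 1 and 3 hold 69.8% and 68.4% structural RNA and 4025031 and 4330734 other counts, while cKO replicate 2 holds 0.350% and 22907885.

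Progenitor identity was checked against a list of 24 stem and progenitor markers, all of which were high enough to test. They summed to between 3952 and 4268 CPM in WT and between 2687 and 2882 CPM in cKO, with 2 rising and 9 falling (8.33% and 37.5%). Of all features tested, 21.0% rose and 22.6% fell by the threshold given below, and each count in this paragraph is to be set beside those shares. Microglia, the immune cells of the brain, had 1 of 13 markers tested, and Aif1 and C1qa had 0 counts in all 6 libraries. Endothelial markers had 3 of 10 tested, of which 1 rose and 2 fell, with Cdh5 at 0 counts in all libraries. Ependymal markers had 5 of 8 tested, of which all 5 fell, and summed to between 17.1 and 17.7 CPM in WT and between 8.26 and 10.8 CPM in cKO. Mural and fibroblast markers had 4 of 10 tested, of which 1 rose and 2 fell, and summed to between 262 and 299 CPM in WT and between 80.2 and 102 CPM in cKO. Nearly all of that sum was Cspg4, also on the oligodendrocyte lineage list, at between 259 and 297 CPM in WT and between 76.9 and 97.7 CPM in cKO, while Acta2, Tagln and Pdgfrb were under 3 CPM in each library and Pdgfrb rose (log2 difference 1.96). Among the usual markers, oligodendrocyte lineage genes summed to between 4186 and 4866 CPM in WT and between 6981 and 8495 CPM in cKO, with 23 of 29 tested rising and 5 falling. Astrocyte markers summed to between 6291 and 8229 CPM in WT and between 11263 and 13506 CPM in cKO, with 16 of 28 rising and 5 falling. Neuronal and synaptic markers summed to between 615 and 749 CPM in WT and between 1044 and 1279 CPM in cKO, with 18 of 34 tested rising and 3 falling. Genes of S phase, G2 and M phase summed to between 4023 and 5283 CPM in WT and between 817 and 929 CPM in cKO, with 108 of 121 falling. Whether these marker shifts have a part in the changes below was not tested, and in bulk RNA fewer cells of a type and less RNA per cell cannot be told apart.

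The floxed gene itself was lower in every cKO library. Lmnb1 stood at 156, 209.7 and 188 CPM in WT against 34.3, 32.8 and 39.4 CPM in cKO, in CPM, read counts scaled to library size with TMM factors. All cKO libraries were below all WT libraries (log2 difference -2.38, SE 0.14, adjusted p = 1.85e-05, by edgeR's quasi-likelihood test with Benjamini-Hochberg adjustment over all genes, as for all adjusted p-values that follow). Lmna, which encodes the A-type lamins, stood at 11.2, 11.01 and 8.67 CPM in WT against 10.4, 12.8 and 9.43 CPM in cKO, with overlapping groups (log2 difference 0.10, adjusted p = 0.669). Lmnb2, the other B-type lamin, was at 25.9, 26.5 and 26.7 CPM in WT against 18.6, 20.4 and 21.0 CPM in cKO, a small fall (log2 difference -0.40, SE 0.11, adjusted p = 0.0235) that was no longer called without WT replicate 2, WT replicate 3 or cKO replicate 1 (adjusted p = 0.0623, 0.0609 and 0.0754). The TPM values of protein-coding genes gave Lmnb2 an adjusted p of 0.409. For Lbr, the lamin B receptor, the levels were 20.5, 34.2 and 22.5 CPM in WT against 16.7, 13.1 and 14.5 CPM in cKO (log2 difference -0.81, adjusted p = 0.0171), and the call was lost without cKO replicate 3 (adjusted p = 0.0586), at equal depth (0.0713) and with TPM of protein-coding genes (0.155). Banf1, a small protein that bridges chromatin and the envelope, fell from 102 ± 5.45 to 43.4 ± 6.55 CPM (SD, n = 3 each; log2 difference -1.23, adjusted p = 0.00023 by edgeR). Nrm, the inner membrane protein nurim, was at 18.1, 19.4 and 17.4 CPM in WT against 7.64, 9.81 and 7.46 CPM in cKO (log2 difference -1.12, adjusted p = 0.000879). In the whole list of lamins and their partners, which includes Lmnb1, 2 of 20 tested members rose and 9 fell, with a median log2 difference of -0.24.

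Of 14617 features tested, 3070 were higher in cKO (21.0%) and 3308 were lower (22.6%) at an adjusted p under 0.05, and the 2 groups did not overlap for 57.8% of features. Changes of at least 2-fold were made up of 1776 rises (12.2%) and 1161 falls (7.94%), and those of at least 8-fold of 157 rises (1.07%) and 170 falls (1.16%). Outside the usual marker lists 14269 features were tested, of which 3004 rose and 3113 fell. Among the 12474 protein-coding genes, 21.4% rose and 24.8% fell. Rises made up 48.1% of calls in counts, 65.6% when TPM values of protein-coding genes alone were compared (3839 rises, 2011 falls) and 15.1% with TPM over all features outside the structural set (226 rises, 1269 falls). That last scale moved the median of all genes by -0.82 (log2), the protein-coding TPM scale by 0.20, and the other scalings by less than 0.05, so directions below are relative to the middle gene. Relative to all genes, 35 of the 50 gene lists described below kept the sign of their median under all 9 changes of scale, and the other 15 had medians within 0.325 of 0 in counts. Of the 146 genes named with values by library, 145 passed the threshold, all but Lmna.

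Most calls were kept when structural RNA features were removed or depth outside them was made equal. Neither fit tests what part the unequal structural RNA of the libraries had in the calls. With the structural features removed before scaling, 3036 of the 3042 rises that could be tested again were called, and 3190 of 3305 falls. That removal left all other counts as they were and moved the median of all genes by 0.013 (log2), so few calls could change. With counts thinned to equal depth outside those features, 2389 of 2683 rises and 2798 of 3122 falls that could be tested again were called. Without cKO replicate 2, 2587 of 3070 rises and 3163 of 3308 falls were called again. Against the WT libraries, cKO replicate 2 alone, which is among the libraries behind the calls, had the same sign for 3054 of 3068 rises and for 3308 of 3308 falls, and passed the threshold for 1295 and 1622 of them, a comparison in which a lone cKO library is assumed to vary like the others.

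The size of the change was not shared equally by the cKO libraries. Among the 3070 rises, 404 (13.2%) were more than 2-fold lower in cKO replicate 2 than in the mean of cKO replicates 1 and 3, and 1 was more than 2-fold higher. The 3308 falls had 3 and 6 such genes. Their median log2 difference was -0.78 for cKO replicates 1 and 3 and -0.61 for cKO replicate 2. Both are smaller in size than the 2-fold cut, so that cut could show few falls apart. Features other than protein-coding genes held 159 of the 404, which is 39.5% of the 403 such features that rose, against 9.19% of protein-coding rises. The median log2 difference from WT over all rises was 1.06 for cKO replicates 1 and 3 and 0.88 for cKO replicate 2. The rises that were lower in cKO replicate 2 had a median annotated gene length of 32.8 kb, and 58 were TEC features, which are transcripts the annotators have yet to test, 30 were antisense genes and 29 lincRNAs. That length was 70.5 kb for the 245 protein-coding genes among them and 4.52 kb for the others. Those 245 had a median transcript length of 6.11 kb, against 4.63 kb for protein-coding rises within 2-fold. The structural RNA share of the libraries moved with this split (69.8% and 68.4% against 0.350%), and its part was not tested. No strand information was at hand, so reads of antisense genes and of the genes they overlap cannot be told apart.

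**Figure D2:**
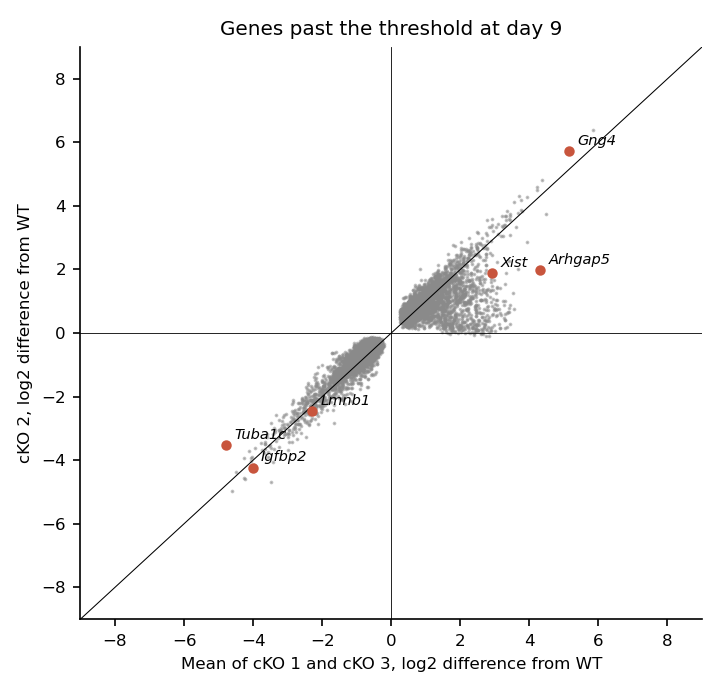
Each dot is a gene past the threshold, placed by its log2 difference from the WT mean in cKO replicates 1 and 3 (horizontal axis, mean of both) and in cKO replicate 2 (vertical axis), with the line of equality. Of the falls, 3299 lie within 1 log2 unit of the line, with a smaller median size in cKO replicate 2 (-0.61 against -0.78). More than 1 log2 unit below the line lie 404 rises, Arhgap5 among them.

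Genes of varied function made up the largest rises outside the usual markers, among them a G protein subunit, a sphingolipid enzyme and a zinc-binding membrane protein. Genes ranked here and below by fold or by difference in CPM were picked only where the groups did not overlap. Gng4, a G protein gamma subunit, was at 0.226, 0.143 and 0.145 CPM in WT against 29.0, 35.1 and 18.7 CPM in cKO. All 3 cKO libraries were high and all WT libraries near the limit of detection, which gave the largest fitted difference of the genes named (log2 difference 7.28, SE 0.33, adjusted p = 9.31e-06). Cbln2, a secreted synapse organiser, was at 0.678, 0.394 and 0.611 CPM in WT against 11.1, 12.1 and 10.4 CPM in cKO (log2 difference 4.30, adjusted p = 1.53e-05). Fa2h, which hydroxylates the fatty acids of myelin sphingolipids, stood at 1.95, 1.76 and 3.23 CPM in WT against 42.2, 52.6 and 39.7 CPM in cKO. The cKO libraries lay close together and far above WT (log2 difference 4.27, SE 0.26, adjusted p = 2.82e-05). Neu4, a sialidase, was at 1.30, 1.25 and 1.80 CPM in WT against 18.4, 27.1 and 20.3 CPM in cKO (log2 difference 3.92, adjusted p = 1.69e-05). Tmem163, a zinc-binding vesicle membrane protein, was at 1.75, 1.18 and 1.51 CPM in WT against 22.1, 25.7 and 19.6 CPM in cKO (log2 difference 3.92, adjusted p = 1.02e-05). The summed oligodendrocyte, astrocyte and neuronal markers given above were higher in the same libraries, and their part in these rises was not tested.

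Plcg2, the phospholipase C that is best known from immune cells, rose from 2.03, 1.86 and 1.54 to 28.8, 32.9 and 32.9 CPM (log2 difference 4.12, adjusted p = 4.96e-06), while 1 of 13 microglial markers was high enough to test. Naaa, a lysosomal amidase, was at 0.424, 0.359 and 0.407 CPM in WT against 5.61, 11.1 and 12.5 CPM in cKO, and Fam129a at 0.424, 0.610 and 0.989 CPM in WT against 12.2, 22.4 and 17.03 CPM in cKO. Both had cKO libraries that differed among themselves. Epha3, a receptor for ephrins, was at 0.819, 0.359 and 0.640 CPM in WT against 9.82, 8.62 and 9.85 CPM in cKO (log2 difference 3.93, adjusted p = 5.53e-05). Pgm5, a junction protein of the phosphoglucomutase family, was at 0.509, 0.466 and 0.814 CPM in WT against 5.14, 12.4 and 11.5 CPM in cKO. Arhgap5, a GTPase-activating protein, differed from the rest: it was at 2.97, 2.26 and 2.24 CPM in WT against 57.4, 11.1 and 59.8 CPM in cKO. cKO replicate 2 was above WT and well below the other cKO libraries (log2 difference 4.08, SE 0.73, adjusted p = 0.0101), and the call was lost without WT replicate 3 (adjusted p = 0.0662).

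Of the genes named, Rab26, Ngfr, Cd93 and Igfbp4 had the largest falls by fold. Igfbp2, which binds insulin-like growth factors, was at 851, 765 and 703 CPM in WT against 48.3, 40.5 and 46.2 CPM in cKO. It was low in every cKO library with little spread (log2 difference -4.11, SE 0.14, adjusted p = 4.81e-06). Igfbp4, of the same family, was at 188, 202 and 149 CPM in WT against 7.64, 5.18 and 6.05 CPM in cKO (log2 difference -4.87, adjusted p = 4.96e-06). Ngfr, the p75 neurotrophin receptor, was at 23.1, 23.9 and 20.4 CPM in WT against 0.468, 0.603 and 0.563 CPM in cKO, so that cKO cells held under 1 CPM in each library (log2 difference -5.29, adjusted p = 4.81e-06). Cd93, a C-type lectin receptor best known from blood vessel lining, was at 12.7, 15.7 and 14.6 CPM in WT against 0.468, 0.327 and 0.422 CPM in cKO (log2 difference -5.26, adjusted p = 6.34e-06). Of the 10 endothelial markers, 3 were high enough to test: Eng (log2 difference -3.23) and Flt1 (-1.31) fell and Kdr rose (0.76), all at under 4 CPM in each library, while Cdh5 was at 0 and Cldn5 at 1 count or fewer. The list summed to between 3.29 and 4.20 CPM in WT and between 3.27 and 3.70 CPM in cKO, and the part of endothelial cells in the fall of Cd93 was not tested. Fzd10, a receptor for Wnt ligands, was at 20.1, 29.6 and 18.7 CPM in WT against 1.71, 2.01 and 1.55 CPM in cKO (log2 difference -3.64, adjusted p = 2.6e-05).

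Lgals1, Trf, Fndc1 and Timp4 were also among the 12 largest falls. Lgals1, the sugar-binding galectin-1, was at 129, 121 and 93.8 CPM in WT against 5.30, 8.17 and 7.04 CPM in cKO (log2 difference -4.03, adjusted p = 1.02e-05). Trf, the iron carrier transferrin, was at 116, 109 and 108 CPM in WT against 11.7, 3.87 and 7.74 CPM in cKO. Its cKO libraries spread widely, lowest in replicate 2 (log2 difference -3.94, SE 0.40, adjusted p = 0.00101). Timp4, an inhibitor of metalloproteinases, was at 91.2, 73.4 and 95.1 CPM in WT against 8.73, 4.68 and 6.61 CPM in cKO, and Fndc1, with fibronectin domains, at 23.5, 31.8 and 24.3 CPM in WT against 2.03, 1.63 and 2.11 CPM in cKO. Tle6, a relative of Groucho co-repressors, was at 30.7, 33.6 and 24.3 CPM in WT against 1.71, 1.48 and 0.985 CPM in cKO (log2 difference -4.38, adjusted p = 1.02e-05). Rab26, a GTPase of secretory vesicles, was at 13.3, 18.9 and 9.57 CPM in WT against 0.156, 0.277 and 0.704 CPM in cKO (log2 difference -5.35, adjusted p = 0.000148). Tuba1c, an alpha tubulin, was at 24.4, 27.5 and 18.8 CPM in WT against 0, 1.56 and 0.985 CPM in cKO, with no count in cKO replicate 1. Its fitted difference of -4.43 became -5.52 without cKO replicate 2, and since alpha tubulin genes are close copies, reads can be divided among them in error.

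**Figure D3:**
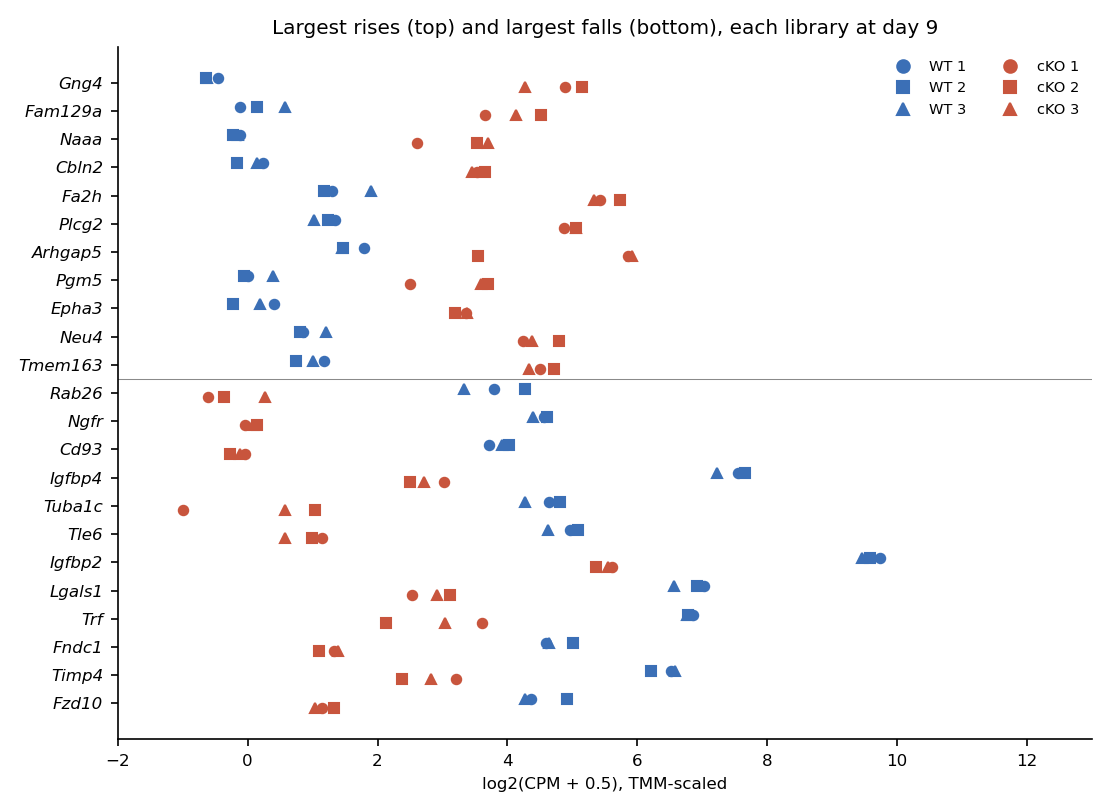
Points give log2(CPM + 0.5) of each day 9 library for 11 of the 12 largest rises and the 12 largest falls outside the usual markers, WT in blue and cKO in red, with circle, square and triangle for replicates 1, 2 and 3. Genes were picked only where the groups did not overlap. Arhgap5 shows cKO replicate 2 between WT and the other cKO libraries.

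Measured as a difference in CPM, other genes led. Tuba1a, an alpha tubulin abundant in young neural cells, was at 1847, 1620.1 and 1739.7 CPM in WT against 2914, 3311 and 2685 CPM in cKO (log2 difference 0.77, adjusted p = 0.00258), although TPM over all features gave it the opposite sign (log2 difference -0.13). Tnr, the matrix protein tenascin-R, was at 154, 105 and 81.7 CPM in WT against 1061, 961 and 836 CPM in cKO, a rise of 8.39-fold. Glud1, which interconverts glutamate and oxoglutarate, was at 538, 493 and 721 CPM in WT against 1024, 1315 and 1117 CPM in cKO (log2 difference 0.98, adjusted p = 0.00341). Cpe, a prohormone-processing carboxypeptidase, was at 418, 428 and 509.5 CPM in WT against 865, 1173 and 1018 CPM in cKO and Ntrk2, the BDNF receptor TrkB, at 556, 555 and 684 CPM in WT against 951, 1290.3 and 1157 CPM in cKO. Both were highest in cKO replicate 2. Cyfip2, of the actin-regulating WAVE complex, was at 86.6, 85.4 and 122 CPM in WT against 471, 469 and 418 CPM in cKO (log2 difference 2.21, adjusted p = 4.52e-05). Ttyh1, of the tweety anion channel family, was at 156, 107 and 213 CPM in WT against 496, 629 and 582 CPM in cKO, while its relative Ttyh3 went the other way, at 1287, 1283 and 1257 CPM in WT against 552, 565 and 605 CPM in cKO (log2 difference 1.84, adjusted p = 0.00162, and log2 difference -1.15, adjusted p = 0.000143). Astrocyte, neuronal and oligodendrocyte markers were higher in the same cKO libraries, as given above, and their part in the rises was not tested.

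Xist, Qk and Gpm6b, picked by the same rule, had wide spread within WT. Xist, the RNA that coats the inactive X chromosome, was at 178, 128 and 73.1 CPM in WT against 922, 439 and 888 CPM in cKO, lowest in cKO replicate 2 of the cKO libraries (log2 difference 2.57, SE 0.44, adjusted p = 0.0069). Qk, an RNA-binding regulator of splicing, was at 355, 243 and 131 CPM in WT against 706, 573 and 618 CPM in cKO and Gpm6b, a membrane proteolipid, at 330.3, 218 and 131 CPM in WT against 536, 732 and 487 CPM in cKO. Their adjusted p of 0.0239 and 0.0252 did not hold when libraries were left out: Qk was at 0.0812 without WT replicate 2 and at 0.0753, 0.0650 and 0.0637 without cKO replicates 1, 2 and 3, and Gpm6b at 0.0882 without WT replicate 2 and at 0.0622 and 0.0885 without cKO replicates 1 and 2.

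Among the falls in CPM, Ckb, the brain creatine kinase, was at 3242, 2541 and 2736 CPM in WT against 1252, 1543 and 1333 CPM in cKO (log2 difference -1.05, adjusted p = 0.00101). Ncan, the proteoglycan neurocan, was at 1981, 1887 and 2418 CPM in WT against 1232, 772 and 1360.2 CPM in cKO (log2 difference -0.90, adjusted p = 0.0134). Sdc3, a membrane proteoglycan, was at 736, 716 and 727 CPM in WT against 218, 186 and 199 CPM in cKO, and the 3 cKO libraries lay close together (log2 difference -1.85, adjusted p = 1.89e-05). Serpine2, a secreted protease inhibitor, was at 1185, 1185 and 1313 CPM in WT against 524, 598 and 517 CPM in cKO. Hip1, an endocytic adaptor, was at 608, 866 and 742 CPM in WT against 155, 146 and 149 CPM in cKO (log2 difference -2.30, adjusted p = 2.59e-05). Eef2, the factor that moves the ribosome along, was at 3081, 2482 and 2813 CPM in WT against 1894, 1909 and 1849 CPM in cKO, a fall of under 1 log2 unit (log2 difference -0.57, adjusted p = 0.00841). The other leading falls, Atp5b and Atp5a1, are subunits of the mitochondrial ATP synthase.

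Of the 50 gene lists outside the usual markers and the markers of other cells, the respiratory chain subunits of the mitochondrion had the highest share of falls. Counts in each list are to be set beside the shares of all features, 21.0% rising and 22.6% falling. Falls were more common among protein-coding genes with short transcripts (39.04% of the shortest quintile) or high level (35.6% of the highest quintile), as given further on. The part of transcript length and level in the list counts was not tested. The respiratory chain passes electrons from NADH to oxygen through complexes I to IV, and complex V turns the proton gradient into ATP. Of its nuclear-encoded subunits, 0 of 80 tested members rose and 71 fell, with a median log2 difference of -0.77, against 22.6% falling among all features. The median by cKO library was -0.84, -0.52 and -0.86, lower than WT in each, and smallest in size in cKO replicate 2. The falls numbered from 60 to 74 with 1 library left out at a time, and 35 with cKO replicate 2 alone. Atp5b, the catalytic beta subunit of complex V, was at 1543, 1426 and 1458 CPM in WT against 615, 761 and 629.8 CPM in cKO (log2 difference -1.14, adjusted p = 0.000352), and Atp5a1, the alpha subunit, at 1177, 1140.2 and 1213 CPM in WT against 577, 666 and 582 CPM in cKO (log2 difference -0.95, adjusted p = 0.000508). Ndufc2 of complex I was at 159, 140.1 and 142 CPM in WT against 46.8, 70.5 and 48.1 CPM in cKO (log2 difference -1.41, adjusted p = 0.000493) and Uqcrc1 of complex III at 242, 193 and 196 CPM in WT against 94.3, 109.6 and 96.9 CPM in cKO (log2 difference -1.07, adjusted p = 0.000474). In each of these genes cKO replicate 2 was the highest of the cKO libraries and still below every WT library.

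Mitochondrial ribosomes make the subunits that the mitochondrial genome encodes. Of their proteins, 1 of 76 tested members rose and 49 fell, with a median log2 difference of -0.50. Falls of this list numbered from 25 to 60 with 1 library left out at a time, with 32 without WT replicate 2, 25 without cKO replicate 1 and 31 without cKO replicate 3. Mrps27, of the small subunit, was at 32.2, 30.2 and 30.9 CPM in WT against 13.7, 15.6 and 13.4 CPM in cKO (log2 difference -1.12, adjusted p = 0.00029) and Mrpl38, of the large subunit, at 29.5, 27.6 and 27.4 CPM in WT against 13.1, 15.8 and 14.5 CPM in cKO (log2 difference -0.95, adjusted p = 0.000727). Among mitochondrial tRNA synthetases, a list that includes Lars2, 1 of 17 tested members rose and 6 fell, with a median log2 difference of -0.32. Aars2 was at 23.2, 20.8 and 20.3 CPM in WT against 10.1, 14.7 and 11.3 CPM in cKO and Mars2 at 12.9, 12.4 and 9.68 CPM in WT against 19.3, 19.8 and 19.98 CPM in cKO (log2 difference -0.81, adjusted p = 0.00542, and log2 difference 0.75, adjusted p = 0.00451). TPM over all features gave Mars2 the opposite sign (-0.043). Falls of these synthetases numbered from 3 to 6 (3 without WT replicate 2 or cKO replicate 1) with each library left out in turn.

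The promoters of an ATP synthase gene and a mitochondrial ribosomal gene are shown because they hold the CCAAT box (CCAAT) and the ETS site (CCGGAAG) counted further on. They are the 250 bases before the annotated start, from RefSeq on GRCm38.p6, with the 6 motifs searched on both strands in capitals: CHR (TTTGAA), E2F (TTCCCGC, with TTGGCGC as its other form), the CCAAT box, ETS, the E-box (CAGCTG), plus the SP site (GGGCGG), with overlapping matches each counted. The Atp5b window lies at chr10:128083057-128083306, forward strand, and that of Mrps27 at chr13:99344536-99344785, forward strand.
Atp5b: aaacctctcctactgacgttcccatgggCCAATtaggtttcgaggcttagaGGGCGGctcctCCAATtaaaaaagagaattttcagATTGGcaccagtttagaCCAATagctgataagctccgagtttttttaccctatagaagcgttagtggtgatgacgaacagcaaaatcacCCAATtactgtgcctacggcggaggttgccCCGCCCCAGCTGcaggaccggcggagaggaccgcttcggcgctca
Mrps27: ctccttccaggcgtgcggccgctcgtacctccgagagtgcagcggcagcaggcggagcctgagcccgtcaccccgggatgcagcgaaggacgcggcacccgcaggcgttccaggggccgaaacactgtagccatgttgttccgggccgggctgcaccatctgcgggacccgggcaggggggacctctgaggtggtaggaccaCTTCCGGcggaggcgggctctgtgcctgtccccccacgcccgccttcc
Atp5b had 5 CCAAT boxes, 2 SP sites and 1 E-box in its window, and Mrps27 had 1 ETS site. These are letter matches, not sites known to be bound.

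Enzymes that feed the respiratory chain also held more falls than rises. In the citrate cycle, 3 of 31 tested members rose and 19 fell, with a median log2 difference of -0.56, and from 17 to 23 falls with any 1 library left out. Cs, citrate synthase, was at 629, 676 and 657 CPM in WT against 297, 356 and 315 CPM in cKO (log2 difference -1.02, adjusted p = 0.000365) and Idh2, mitochondrial isocitrate dehydrogenase, at 141, 131 and 129 CPM in WT against 67.8, 75.2 and 72.3 CPM in cKO. Both had closely grouped libraries on either side. Of fatty acid oxidation and peroxisome genes, 4 of 50 tested members rose and 15 fell, with a median log2 difference of -0.26. Here the falls numbered from 7 to 21 with 1 library left out at a time, with 9 without WT replicate 1, 8 without WT replicate 3, 7 without cKO replicate 1 and 8 without cKO replicate 3. Crat, carnitine acetyltransferase, was at 68.9, 66.7 and 69.3 CPM in WT against 33.0, 39.7 and 35.3 CPM in cKO and Cpt1a, which starts fatty acid import, at 67.9, 82.4 and 80.1 CPM in WT against 39.6, 42.0 and 43.5 CPM in cKO. For glutathione and oxidant defence, 4 of 36 tested members rose and 22 fell, with a median log2 difference of -0.46. Its falls numbered from 13 to 28 with 1 library left out at a time, with 13 without cKO replicate 1 and 13 without cKO replicate 3. Txn1, thioredoxin, stood out with 562, 577 and 473 CPM in WT against 47.1, 67.7 and 54.2 CPM in cKO (log2 difference -3.25, SE 0.17, adjusted p = 1.07e-05), and Gstt1, a glutathione transferase, was at 19.5, 15.5 and 16.2 CPM in WT against 2.18, 2.59 and 2.95 CPM in cKO (log2 difference -2.72, adjusted p = 2.68e-05).

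The nucleotide and serine lists held more falls than rises. For nucleotide synthesis, 2 of 31 tested members rose and 15 fell, with a median log2 difference of -0.36, and outside the usual markers that the list shares 2 of 27 rose and 12 fell. Falls numbered from 8 to 16 with 1 library left out at a time, with 8 without WT replicate 2, 8 without cKO replicate 1 and 8 without cKO replicate 3. Nme2, a nucleoside diphosphate kinase, was at 52.3, 42.6 and 41.2 CPM in WT against 11.1, 15.1 and 14.4 CPM in cKO (log2 difference -1.74, adjusted p = 0.000144). For serine and one-carbon metabolism, 1 of 24 tested members rose and 12 fell, with a median log2 difference of -0.41. The falls numbered from 7 to 12 with 1 library left out at a time, with 7 without WT replicate 2 and 7 without cKO replicate 1. Mthfd1l, a mitochondrial folate enzyme, was at 23.9, 31.5 and 25.9 CPM in WT against 7.64, 8.80 and 8.58 CPM in cKO and Slc1a4, a carrier of serine and alanine, at 165, 166 and 163 CPM in WT against 60.02, 62.5 and 66.6 CPM in cKO (log2 difference -1.69, adjusted p = 0.000109, and log2 difference -1.39, adjusted p = 2.82e-05). In polyamine metabolism, 5 of 12 tested members rose and 4 fell, with a median log2 difference of -0.32. Sat1, which acetylates polyamines for export or breakdown, was at 20.9, 18.3 and 25.1 CPM in WT against 40.7, 59.6 and 49.95 CPM in cKO, and Oaz1, an inhibitor of polyamine synthesis, at 198, 168 and 179 CPM in WT against 56.3, 105 and 76.7 CPM in cKO. Polyamine rises numbered from 2 to 5 (3 without WT replicate 1 or WT replicate 2, 2 without WT replicate 3) with each library left out in turn.

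Zinc and lipid lists held more rises than falls. Metallothioneins bind zinc and copper, and the SLC30 and SLC39 families move zinc out of and into the cytosol: 9 of 22 tested members rose and 2 fell, with a median log2 difference of 0.48. The rises numbered from 6 to 9 with 1 library left out at a time. Mt1 was at 120.2, 94.7 and 115 CPM in WT against 189, 299.8 and 222 CPM in cKO (log2 difference 1.11, adjusted p = 0.00256), highest in cKO replicate 2, and Slc30a10, an exporter of manganese and zinc, at 6.67, 5.06 and 9.07 CPM in WT against 29.8, 37.0 and 36.7 CPM in cKO (log2 difference 2.32, adjusted p = 0.000172). For sphingolipid and galactolipid synthesis, 10 of 31 tested members rose and 5 fell, with a median log2 difference of 0.12, which relative to all genes became -0.05 in TPM over all features. Outside the usual markers that the list shares 8 of 29 rose and 5 fell, with a median of 0.03. Elovl7, which elongates fatty acids, was at 5.85, 5.84 and 5.09 CPM in WT against 24.9, 29.5 and 17.3 CPM in cKO, while Sphk1, sphingosine kinase, was at 4.27, 3.19 and 4.39 CPM in WT against 0.312, 0.453 and 0.563 CPM in cKO (log2 difference 2.11, adjusted p = 0.000172, and log2 difference -3.13, adjusted p = 0.000224). Astrocyte and oligodendrocyte markers rose alongside, and their part in these lists was not tested. Falls in the sphingolipid list numbered from 3 to 6 (3 without WT replicate 3 or cKO replicate 1) with each library left out in turn.

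Proteasome subunits, which form the barrel and cap that degrade tagged proteins, held falls and no rises at the threshold. For this list, 0 of 38 tested members rose and 27 fell, with a median log2 difference of -0.50, against 22.6% falling among all features, and the median by cKO library was -0.58, -0.32 and -0.60. Outside the usual markers that the list shares 0 of 35 rose and 24 fell. Proteasome falls numbered from 17 to 30 with 1 library left out at a time, with 17 without cKO replicate 1, and cKO replicate 2 alone gave 8. Psmc3, an ATPase of the cap, was at 137, 129 and 134 CPM in WT against 73.3, 84.9 and 68.8 CPM in cKO (log2 difference -0.81, adjusted p = 0.000794) and Psmd8, another cap subunit, at 144, 129 and 136 CPM in WT against 73.0, 87.1 and 79.1 CPM in cKO. The list was made from symbols and so took in Psmc3ip, a recombination cofactor that is no subunit, at 7.80, 11.04 and 7.91 CPM in WT against 2.81, 3.29 and 3.38 CPM in cKO (log2 difference -1.48, adjusted p = 0.00105). Of chaperones, 4 of 30 tested members rose and 9 fell, with a median log2 difference of -0.09, with Trap1, a mitochondrial member, at 89.2, 90.1 and 93.4 CPM in WT against 56.4, 59.3 and 47.7 CPM in cKO and Hspb6, a small heat shock protein, at 9.49, 10.9 and 10.4 CPM in WT against 3.74, 4.22 and 4.78 CPM in cKO. Lysosomal genes had 5 rises and 17 falls among 58 tested (8.62% and 29.3%, against 21.0% and 22.6% of all features). They were led by Ctsc, cathepsin C, at 42.5, 49.5 and 45.0 CPM in WT against 6.70, 6.21 and 5.63 CPM in cKO (log2 difference -2.89, SE 0.13, adjusted p = 8.47e-06) and Glb1, beta-galactosidase, at 68.5, 65.1 and 66.3 CPM in WT against 20.1, 24.2 and 20.8 CPM in cKO. Autophagy genes had 6 rises and 4 falls among 34 tested (17.6% and 11.8%, both below the shares of all features). Their leading rises Ulk2 (0.79) and Wipi1 (0.74) had the opposite sign in TPM over all features (-0.038 and -0.13). Autophagy rises numbered from 2 to 4 (3 without WT replicate 1, WT replicate 2, WT replicate 3 or cKO replicate 3, 2 without cKO replicate 1) and falls from 0 to 6 with each library left out in turn. On the same basis chaperone falls numbered from 3 to 12 (5 without WT replicate 1, 3 without WT replicate 2 or WT replicate 3, 4 without cKO replicate 1 or cKO replicate 3), and lysosomal rises from 2 to 5 (3 without WT replicate 2, 2 without cKO replicate 1).

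Genes that make ribosomes held more rises than falls, and translation factors more falls than rises. Ribosome biogenesis takes place in the nucleolus, and of its factors, 19 of 52 tested members rose and 5 fell, with a median log2 difference of 0.14, against 21.0% rising among all features. Relative to all genes that median became -0.01 in TPM over all features. The rises numbered from 8 to 16 with 1 library left out at a time, with 12 without WT replicate 3 and 8 without cKO replicate 1, and the falls from 1 to 11. Gnl3, nucleostemin, was at 10.4, 9.90 and 6.98 CPM in WT against 20.6, 24.7 and 16.2 CPM in cKO (log2 difference 1.18, adjusted p = 0.00333) and Dkc1, which modifies ribosomal RNA, at 6.10, 5.20 and 2.88 CPM in WT against 14.5, 14.7 and 10.6 CPM in cKO (log2 difference 1.49, adjusted p = 0.0055). Emg1, a ribosomal RNA methyltransferase, fell, at 43.1, 40.1 and 42.6 CPM in WT against 25.7, 30.5 and 22.9 CPM in cKO (log2 difference -0.66, adjusted p = 0.00548). Of initiation and elongation factors, 8 of 61 tested members rose and 26 fell, with a median log2 difference of -0.18. Falls among them numbered from 12 to 28 with 1 library left out at a time, with 15 without WT replicate 1, 17 without WT replicate 3, 12 without cKO replicate 1 and 12 without cKO replicate 3. Eif5b, which joins the ribosomal subunits, was at 5.45, 4.52 and 2.82 CPM in WT against 23.5, 12.5 and 22.4 CPM in cKO, lowest in cKO replicate 2 of the cKO libraries, and Eif2b2 was at 38.9, 34.7 and 37.0 CPM in WT against 17.9, 23.9 and 22.7 CPM in cKO (log2 difference 2.17, adjusted p = 0.00286, and log2 difference -0.77, adjusted p = 0.00356). Cytosolic tRNA synthetases had 3 rises and 7 falls among 22, with Dars at 35.8, 32.8 and 27.8 CPM in WT against 58.1, 84.9 and 56.4 CPM in cKO and Qars at 52.0, 49.2 and 51.4 CPM in WT against 32.7, 33.2 and 31.2 CPM in cKO. With each library left out in turn, rises of translation factors numbered from 4 to 10 (5 without WT replicate 2, 4 without cKO replicate 1) and falls of cytosolic tRNA synthetases from 4 to 9 (4 without WT replicate 1, WT replicate 2, WT replicate 3, cKO replicate 1 or cKO replicate 3).

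Splicing factors fell more often than they rose: 7 of 74 tested members rose and 35 fell, with a median log2 difference of -0.31. The number of falls ran from 18 to 40 with 1 library left out at a time, with 20 without WT replicate 2, 21 without WT replicate 3, 18 without cKO replicate 1 and 20 without cKO replicate 3. Lsm4, of the ring that binds U6 RNA, was at 66.2, 61.0 and 55.9 CPM in WT against 22.4, 25.5 and 21.0 CPM in cKO (log2 difference -1.40, adjusted p = 0.000104). Host genes of small nucleolar RNAs, whose introns carry those guides, had 4 rises and 0 falls among 14 tested. Snhg11 was at 3.25, 3.12 and 2.47 CPM in WT against 9.51, 8.07 and 9.57 CPM in cKO (log2 difference 1.61, adjusted p = 0.000446). Gas5 was at 104, 92.5 and 111 CPM in WT against 143, 139.9 and 118 CPM in cKO (log2 difference 0.38, adjusted p = 0.0311), a call that was lost without WT replicate 1 (adjusted p = 0.0787), WT replicate 2 (0.107), cKO replicate 1 (0.122) or cKO replicate 2 (0.0551), and TPM over all features gave it a log2 difference of -0.59. Rises among splicing factors numbered from 3 to 6 (4 without WT replicate 2, 3 without WT replicate 3 or cKO replicate 1) with each library left out in turn.

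**Figure D4:**
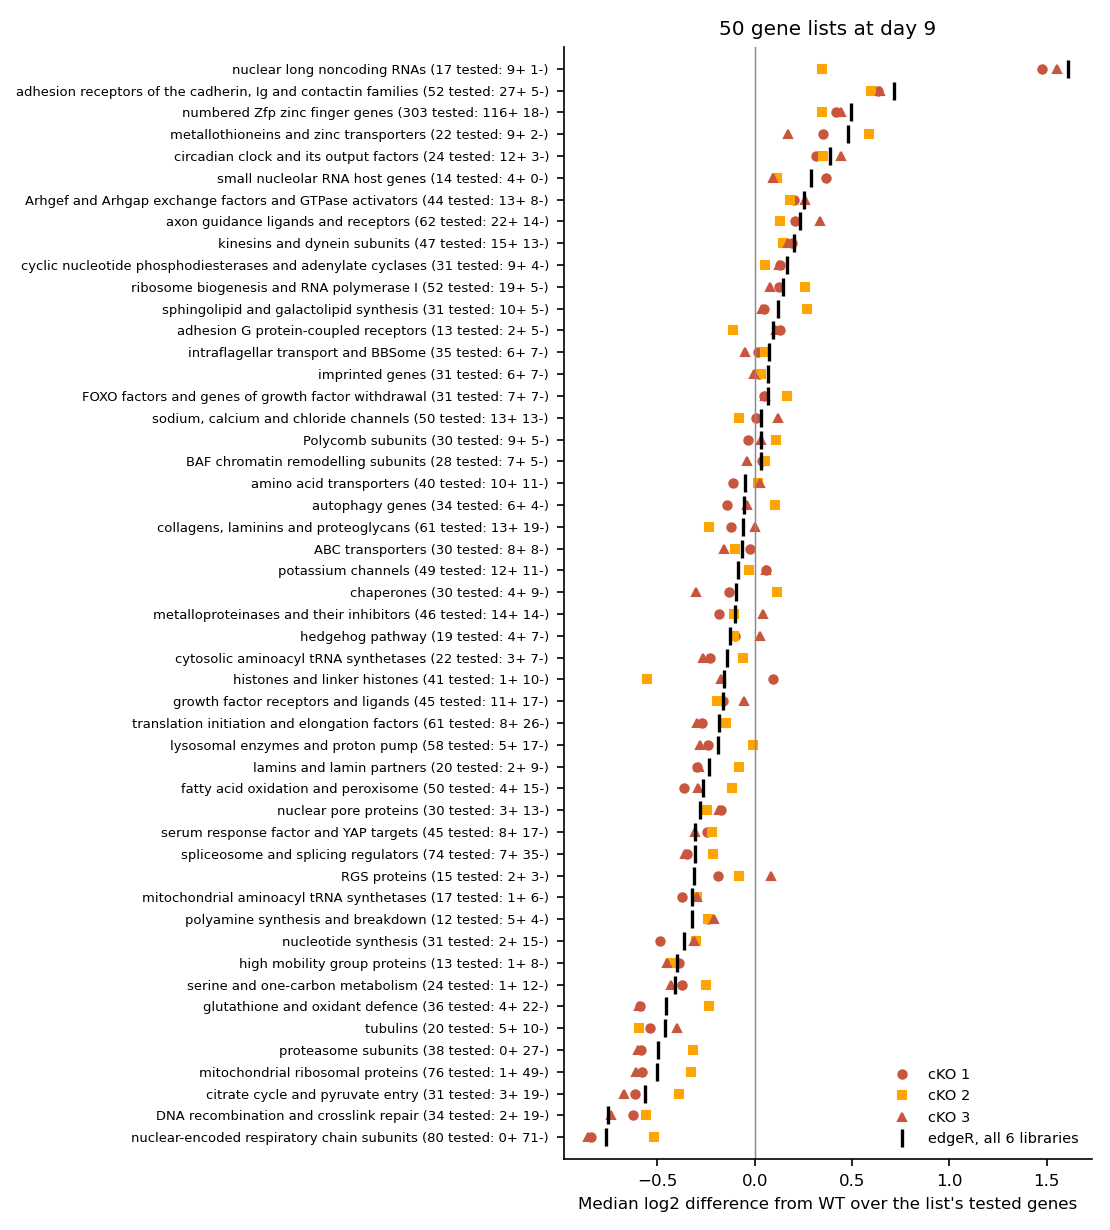
For each of 50 gene lists, points give the median log2 difference from the WT mean of the tested members in cKO replicates 1 (red circle), 2 (orange square) and 3 (red triangle), and the vertical mark gives the median edgeR log2 difference over all 6 libraries. Counts in brackets are members tested, risen (+) and fallen (-). Among lists outside the usual markers the respiratory chain lies lowest, with 71 of 80 falls, and nuclear long noncoding RNAs highest, with 9 of 17 rises and cKO replicate 2 far below the other cKO libraries.

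Nuclear pore proteins, which the lamina spaces in the envelope, had 3 rises and 13 falls among 30 tested (8 falls without WT replicate 2). These were 10.0% and 43.3%, against 21.0% and 22.6% of all features. Aaas was at 27.3, 30.05 and 23.5 CPM in WT against 10.3, 10.01 and 8.58 CPM in cKO (log2 difference -1.48, adjusted p = 0.000173). Nup210, which spans the membrane of the pore, was at 116, 133 and 112 CPM in WT against 71.2, 60.9 and 70.1 CPM in cKO (log2 difference -0.84, adjusted p = 0.000832), but not called with TPM of protein-coding genes (adjusted p = 0.0754). High mobility group proteins, abundant architectural proteins of chromatin, gave 8 falls and 1 rise among 13. Hmgb2, typical of dividing cells, was at 77.1, 107 and 86.4 CPM in WT against 15.3, 25.2 and 18.2 CPM in cKO (log2 difference -2.18, SE 0.21, adjusted p = 0.000281), and Hmgn2 at 349.7, 389 and 359 CPM in WT against 118, 163 and 129 CPM in cKO (log2 difference -1.42, adjusted p = 0.000207).

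Histone genes depended on which cKO library was read. Of all histone genes, 1 of 41 tested members rose and 10 fell, with a median log2 difference of -0.16. The falls were 24.4% of the list, against 22.6% falling among all features. The 28 replication-dependent histone genes, whose messages mostly lack a poly(A) tail, summed to 104, 114 and 108 CPM in WT, against 134, 67.0 and 123 CPM in cKO. Thus cKO replicates 1 and 3 were above WT and cKO replicate 2 below, with median log2 differences of 0.95, -0.58 and 0.61. Of these genes 1 rose and 3 fell, and without cKO replicate 2 the whole list had 16 rises and 12 falls, against 0 and 20 for that replicate alone. The 13 other histone genes summed to between 1398 and 1579 CPM in WT and between 955 and 1194 CPM in cKO, lower in each cKO library, and 7 fell. H2afx, the histone phosphorylated at DNA breaks, was at 68.6, 69.3 and 63.9 CPM in WT against 19.95, 21.2 and 23.2 CPM in cKO (log2 difference -1.65, SE 0.11, adjusted p = 2.52e-05), and H2afv, an H2A.Z form, at 86.9, 81.8 and 88.5 CPM in WT against 34.9, 39.5 and 39.1 CPM in cKO (log2 difference -1.18, adjusted p = 6.85e-05). The structural RNA share of these libraries moved with the replication-dependent genes, and its part was not tested.

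BAF and Polycomb complexes remodel and silence chromatin, and both lists held rises and falls. BAF remodelling subunits had 7 rises and 5 falls among 28, and Polycomb subunits 9 and 5 among 30. Within them, Dpf3, a BAF reader of acetylated histones, was at 27.9, 37.2 and 31.0 CPM in WT against 11.7, 9.73 and 8.16 CPM in cKO (log2 difference -1.70, adjusted p = 0.000227), and Phf19, a cofactor of Polycomb repressive complex 2, at 10.3, 10.1 and 8.87 CPM in WT against 2.03, 1.89 and 1.13 CPM in cKO (log2 difference -2.50, adjusted p = 0.000136). Bcl7a, a BAF subunit, was at 78.2, 83.3 and 101 CPM in WT against 142, 141 and 130.2 CPM in cKO (log2 difference 0.66, adjusted p = 0.00376), with the opposite sign in TPM over all features (-0.21). Genes of recombination and crosslink repair fell more often than they rose: 2 of 34 tested members rose and 19 fell, with a median log2 difference of -0.75, and outside the usual markers 17 of 32 fell. Fancd2 and Fanci, partners that are loaded at crosslinks, were at 12.5, 18.4 and 13.3 CPM in WT against 1.56, 2.21 and 2.67 CPM in cKO, and at 16.6, 24.0 and 18.9 CPM in WT against 4.05, 2.67 and 3.24 CPM in cKO. All cKO libraries were low for both (log2 difference -2.76, adjusted p = 0.00011, and log2 difference -2.63, adjusted p = 8.19e-05). The S phase, G2 and M phase markers given above fell in the same libraries, and their part was not tested. With each library left out in turn, BAF rises numbered from 2 to 7 (3 without WT replicate 2, 4 without WT replicate 3 or cKO replicate 3, 2 without cKO replicate 1) and BAF falls from 1 to 6 (2 without WT replicate 1 or cKO replicate 3, 3 without WT replicate 2, 1 without WT replicate 3 or cKO replicate 1). Polycomb rises numbered from 2 to 6 (5 without WT replicate 2 or cKO replicate 2, 2 without cKO replicate 1, 4 without cKO replicate 3).

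Numbered Zfp genes, most of which encode C2H2 zinc finger proteins and many of which repress transposable elements, rose more often than they fell. Of these, 116 of 303 tested members rose and 18 fell, with a median log2 difference of 0.50, against 21.0% rising among all features. The median by cKO library was 0.42, 0.35 and 0.44. The rises numbered from 48 to 110 with 1 library left out at a time, with 48 without WT replicate 2, 71 without WT replicate 3, 50 without cKO replicate 1 and 62 without cKO replicate 3, and the falls from 7 to 24. cKO replicate 2 alone called 18 rises and 4 falls, and of the 116 rises 36 (31.0%) were more than 2-fold lower in cKO replicate 2 than in cKO replicates 1 and 3. Zfp326, a splicing-linked zinc finger protein, was at 20.9, 14.6 and 12.01 CPM in WT against 44.6, 44.6 and 42.8 CPM in cKO (log2 difference 1.47, adjusted p = 0.000904) and Zfp318 at 12.7, 9.86 and 6.86 CPM in WT against 29.5, 26.6 and 27.9 CPM in cKO (log2 difference 1.51, adjusted p = 0.00117), both even across the cKO libraries. Zfp219 went the other way, at 101, 86.1 and 99.1 CPM in WT against 43.3, 42.4 and 48.3 CPM in cKO (log2 difference -1.10, adjusted p = 0.000171). By chromosome, 14 of 25 tested members rose and 0 fell on chromosome 13, and 19 of 32 rose and 2 fell on chromosome 17, while on chromosome 7, which holds the most, 19 of 81 rose and 6 fell.

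The chromosome 13 and 17 members sit in clusters of close relatives, and the promoters of a neighbouring pair on chromosome 13 are shown because both rose within the same run. The windows are those 250 bases before the start, in GRCm38.p6 from RefSeq, with motifs in capitals as above. The Zfp738 window lies at chr13:67683513-67683762, reverse strand, and the Zfp65 window at chr13:67729174-67729423, reverse strand.
Zfp738: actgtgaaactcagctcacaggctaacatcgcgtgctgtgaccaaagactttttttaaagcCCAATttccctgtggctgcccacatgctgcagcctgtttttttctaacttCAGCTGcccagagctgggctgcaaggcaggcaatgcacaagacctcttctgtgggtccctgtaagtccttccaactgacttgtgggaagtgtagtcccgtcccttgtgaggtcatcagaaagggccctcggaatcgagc
Zfp65: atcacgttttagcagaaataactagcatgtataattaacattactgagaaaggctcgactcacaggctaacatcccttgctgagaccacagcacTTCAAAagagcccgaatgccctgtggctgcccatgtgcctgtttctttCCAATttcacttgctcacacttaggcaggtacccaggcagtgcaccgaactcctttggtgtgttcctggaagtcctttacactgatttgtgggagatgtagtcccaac
Each held 1 CCAAT box, Zfp738 also an E-box and Zfp65 also a CHR match. Zfp738 was at 0.932, 0.968 and 0.756 CPM in WT against 7.79, 2.34 and 7.88 CPM in cKO (log2 difference 2.71, adjusted p = 0.00413) and Zfp65 at 2.83, 2.69 and 2.27 CPM in WT against 15.1, 4.35 and 20.4 CPM in cKO (log2 difference 2.32, adjusted p = 0.0216). In both, cKO replicate 2 was above WT and far below the other cKO libraries. The call of Zfp65 was lost without any of the WT libraries (adjusted p = 0.0619, 0.0696 and 0.0987) and without cKO replicate 1 (0.0619). The run on chromosome 13 spanned 67538641 to 67827002 (GRCm38) and held 8 genes in a row that rose, from Zfp748 to Zfp273. On chromosome 17 a run of 10, from Zfp160 to Zfp758, spanned 21008903 to 22377281. Reads can be shared in error between such close copies, so values of single members are uncertain.

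At the cell surface, adhesion receptors of the cadherin, immunoglobulin and contactin families had the highest share of rises of the membrane lists: 27 of 52 tested members rose and 5 fell, with a median log2 difference of 0.71. Each cKO library showed it (0.63, 0.60 and 0.64), and the rises numbered from 20 to 28 with 1 library left out at a time. Nfasc, neurofascin, which anchors nodes of axons and is also made by glia, was at 40.3, 42.0 and 52.8 CPM in WT against 297, 289 and 271 CPM in cKO (log2 difference 2.67, SE 0.13, adjusted p = 1.02e-05). Against the list, Cdh4, R-cadherin, was at 195, 232 and 215 CPM in WT against 46.1, 43.1 and 41.9 CPM in cKO and Cdh22 at 56.7, 59.7 and 40.2 CPM in WT against 7.17, 5.18 and 6.19 CPM in cKO, both far lower (log2 difference -2.29, adjusted p = 9.31e-06, and log2 difference -3.10, adjusted p = 2.68e-05). Of adhesion G protein-coupled receptors, 2 of 13 rose and 5 fell, among them Adgrg1 (GPR56), at 671, 640.0 and 694 CPM in WT against 270.5, 318 and 309 CPM in cKO. Axon guidance genes had 22 rises and 14 falls among 62. Sema4d, a membrane semaphorin, was at 4.61, 4.95 and 5.47 CPM in WT against 23.7, 24.8 and 21.5 CPM in cKO and Ntn4, a netrin, at 28.3, 33.2 and 33.1 CPM in WT against 9.98, 10.3 and 9.29 CPM in cKO (log2 difference 2.22, adjusted p = 2.01e-05, and log2 difference -1.68, adjusted p = 5.31e-05). The neuronal, astrocyte and oligodendrocyte markers that were higher in cKO, as given above, moved with these rises, and their part was not tested.

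Channel and transporter lists held similar numbers of rises and falls. Potassium channels had 12 rises and 11 falls among 49 tested (24.5% and 22.4%), sodium, calcium and chloride channels 13 and 13 among 50 (26.0% and 26.0%). Among all features 21.0% rose and 22.6% fell, so both lists lay near those shares. Kcnn2, a calcium-activated channel, was at 6.44, 6.31 and 7.59 CPM in WT against 31.2, 37.1 and 34.8 CPM in cKO, and Kcnk2, a background potassium channel, at 7.37, 5.95 and 8.23 CPM in WT against 29.2, 40.8 and 36.6 CPM in cKO (log2 difference 2.34, adjusted p = 1.72e-05, and log2 difference 2.31, adjusted p = 6.25e-05). Kcnip3, a calcium-binding partner of such channels that the symbol pattern includes, fell, at 276, 367 and 302 CPM in WT against 52.5, 55.0 and 53.8 CPM in cKO (log2 difference -2.55, SE 0.13, adjusted p = 1.07e-05). Amino acid transporters had 10 rises and 11 falls among 40 (25.0% and 27.5%), with Slc1a1, a glutamate and cysteine carrier, at 74.3, 63.5 and 93.9 CPM in WT against 329, 345 and 287 CPM in cKO (log2 difference 2.05, adjusted p = 6.81e-05). ABC transporters had 8 of each among 30 (26.7% either way), with Abcc5 at 59.4, 63.8 and 63.4 CPM in WT against 117, 123 and 129 CPM in cKO. With each library left out in turn, rises among sodium, calcium and chloride channels numbered from 7 to 14 (7 without WT replicate 2, 8 without cKO replicate 1) and falls from 8 to 15 (8 without WT replicate 3). On that basis amino acid transporter rises numbered from 5 to 10 (5 without cKO replicate 1) and ABC transporter falls from 5 to 9 (5 without WT replicate 1, WT replicate 2, WT replicate 3 or cKO replicate 1).

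Among signalling lists, the circadian clock had the highest share of rises: 12 of 24 tested members rose and 3 fell, with a median log2 difference of 0.39. The rises numbered from 3 to 9 with 1 library left out at a time, with 3 without WT replicate 2, 7 without WT replicate 3, 6 without cKO replicate 1 and 4 without cKO replicate 3, and 3 with cKO replicate 2 alone. Npas2, which can stand in for CLOCK, was at 0.396, 0.610 and 0.640 CPM in WT against 5.30, 4.63 and 6.89 CPM in cKO (log2 difference 3.33, SE 0.31, adjusted p = 0.000139), and Hlf, an output factor, at 38.4, 41.2 and 35.7 CPM in WT against 21.8, 22.2 and 21.2 CPM in cKO (log2 difference -0.82, adjusted p = 0.000915). Nr1d1, a repressor of the clock, was at 20.6, 20.5 and 20.9 CPM in WT against 30.6, 29.7 and 32.4 CPM in cKO (log2 difference 0.58, adjusted p = 0.00464), with the opposite sign in TPM over all features (-0.23). The labels give no time of day for the harvest.

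Growth factor receptors and ligands had 11 rises and 17 falls among 45 tested (24.4% and 37.8%), and the hedgehog pathway 4 and 7 among 19 (21.1% and 36.8%). Among all features 21.0% rose and 22.6% fell. Outside the usual markers that the growth factor list shares, 11 rose and 14 fell among 41. The median log2 difference of that list was -0.16 with those markers and 0.04 without them. Gas1, a coreceptor for hedgehog ligands, was at 34.1, 41.9 and 35.4 CPM in WT against 10.3, 13.4 and 13.2 CPM in cKO (log2 difference -1.58, adjusted p = 0.000173). Near the shares of all features, FOXO factors and genes of growth factor withdrawal had 7 of each among 31 (22.6% either way). Within them Cdkn1c, the cell cycle inhibitor p57, was at 16.4, 13.98 and 17.8 CPM in WT against 49.1, 53.7 and 44.6 CPM in cKO while Cdkn2c, the inhibitor p18, was at 62.2, 63.6 and 60.5 CPM in WT against 17.8, 22.5 and 21.5 CPM in cKO (log2 difference 1.62, adjusted p = 8.58e-05, and log2 difference -1.59, adjusted p = 4.98e-05). Trib2, a pseudokinase, was at 333, 404 and 407 CPM in WT against 97.9, 81.1 and 89.2 CPM in cKO. Targets of serum response factor and YAP had 8 rises and 17 falls among 45, with Tagln2 at 79.4, 74.2 and 70.6 CPM in WT against 9.04, 10.4 and 9.57 CPM in cKO and Cav1, the coat protein of caveolae, at 7.01, 6.71 and 8.43 CPM in WT against 49.1, 62.3 and 47.0 CPM in cKO (log2 difference -2.94, adjusted p = 4.96e-06, and log2 difference 2.84, adjusted p = 1.66e-05). Rises of the FOXO list numbered from 3 to 6 (4 without WT replicate 1 or WT replicate 2, 3 without cKO replicate 1) with each library left out in turn.

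The numbered Arhgef and Arhgap genes, exchange factors and activators of small GTPases, had 13 rises and 8 falls among 44. Arhgap23 was at 8.70, 8.21 and 8.87 CPM in WT against 20.1, 21.7 and 18.9 CPM in cKO and Arhgap19 at 33.9, 46.5 and 44.5 CPM in WT against 8.73, 9.03 and 8.58 CPM in cKO, so that members of this list also moved both ways. Cyclic nucleotide enzymes had 9 and 4 among 31, with Pde4d at 9.95, 9.36 and 8.03 CPM in WT against 52.8, 38.1 and 46.6 CPM in cKO and Pde2a at 68.5, 70.4 and 70.3 CPM in WT against 29.3, 29.0 and 24.1 CPM in cKO (log2 difference 2.33, adjusted p = 3.42e-05, and log2 difference -1.34, adjusted p = 7.86e-05). Of RGS proteins, which switch off G proteins, 2 rose and 3 fell among 15 (13.3% and 20.0%, against 21.0% and 22.6% of all features). Rgs3 was at 27.9, 29.7 and 27.7 CPM in WT against 8.11, 9.91 and 9.15 CPM in cKO. The sign of that list's median depended on the scale, negative in counts (-0.31) and, relative to all genes, positive in TPM (0.18). Arhgef and Arhgap rises numbered from 8 to 15 (8 without cKO replicate 1) and falls from 4 to 8 (4 without WT replicate 2, 5 without cKO replicate 1) with each library left out in turn.

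Tubulin genes moved in both directions. Of 20 tested, 5 rose and 10 fell. Tubb4a was at 32.5, 26.1 and 37.95 CPM in WT against 333, 378 and 308 CPM in cKO (log2 difference 3.40, SE 0.17, adjusted p = 1.02e-05) and Tubb6 at 36.8, 45.5 and 34.8 CPM in WT against 9.04, 9.35 and 9.01 CPM in cKO (log2 difference -2.09, adjusted p = 3.26e-05). Their summed level was 5335, 4882 and 5073 CPM in WT, against 5361, 6034 and 5128 CPM in cKO, so that the groups overlapped. Kinesin and dynein genes had 15 rises and 13 falls among 47, and outside the usual markers 15 rises and 6 falls. Transport genes of cilia had 6 and 7 among 35 (17.1% and 20.0%, against 21.0% and 22.6% of all features). Ift27 was at 20.1, 18.9 and 18.6 CPM in WT against 6.86, 11.3 and 9.01 CPM in cKO. Rises of the cilia list numbered from 1 to 6 (1 without WT replicate 2 or cKO replicate 1, 3 without WT replicate 3 or cKO replicate 3) and falls from 3 to 7 (3 without WT replicate 2 or cKO replicate 1, 4 without WT replicate 3 or cKO replicate 3) with each library left out in turn, and cKO replicate 2 alone gave 0 and 2.

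In the matrix, collagens, laminins and proteoglycans had 13 rises and 19 falls among 61 (21.3% and 31.1%, against 21.0% and 22.6% of all features). Minor collagens were among the rises, with Col11a2 at 1.38, 1.33 and 1.13 CPM in WT against 17.8, 17.5 and 14.6 CPM in cKO (log2 difference 3.69, SE 0.17, adjusted p = 8.8e-06) and Col9a1 at 3.25, 2.58 and 3.87 CPM in WT against 24.2, 32.0 and 24.1 CPM in cKO (log2 difference 3.05, adjusted p = 2.68e-05). Metalloproteinases and their inhibitors had 14 of each among 46 (30.4% either way, against 21.0% rising and 22.6% falling among all features). Mmp15, a membrane-bound metalloproteinase, was at 405, 402 and 369 CPM in WT against 76.2, 89.1 and 96.9 CPM in cKO and Adam12, a shedding protease, at 107, 165 and 118 CPM in WT against 17.3, 14.9 and 14.9 CPM in cKO (log2 difference -2.16, adjusted p = 1.66e-05, and log2 difference -3.05, adjusted p = 2.18e-05). Adam23, which binds LGI proteins and lacks protease activity, was at 13.9, 11.9 and 15.2 CPM in WT against 87.1, 63.1 and 74.9 CPM in cKO (log2 difference 2.45, adjusted p = 2.46e-05). Rises among metalloproteinases and inhibitors numbered from 6 to 16 (8 without WT replicate 1, cKO replicate 1 or cKO replicate 3, 6 without WT replicate 2, 7 without WT replicate 3) with each library left out in turn.

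Nuclear long noncoding RNAs gave 9 rises and 1 fall among 17 tested, but unevenly: the median was 1.48, 0.35 and 1.55 in cKO replicates 1, 2 and 3. Without cKO replicate 2 there were 11 rises and 1 fall, and with it alone 4 and 2. Miat was at 29.2, 23.7 and 34.0 CPM in WT against 181, 183 and 217 CPM in cKO and Firre, made from the X chromosome, at 4.55, 4.48 and 4.25 CPM in WT against 16.99, 15.2 and 14.6 CPM in cKO, both within the range of the other cKO libraries or next to it in cKO replicate 2 (log2 difference 2.74, adjusted p = 1.61e-05, and log2 difference 1.82, adjusted p = 5.55e-05). Imprinted genes, expressed from the maternal or the paternal copy, had 6 rises and 7 falls among 31. These were 19.4% and 22.6% of the list, against 21.0% and 22.6% of all features. Mest was at 110.1, 146 and 121 CPM in WT against 26.7, 38.3 and 31.9 CPM in cKO (log2 difference -1.95, adjusted p = 8.66e-05) and Impact at 15.2, 14.8 and 12.9 CPM in WT against 32.7, 33.5 and 26.7 CPM in cKO (log2 difference 1.12, adjusted p = 0.000592). Imprinted rises numbered from 3 to 8 (3 without WT replicate 2, cKO replicate 1 or cKO replicate 3) and falls from 4 to 8 (4 without WT replicate 2 or cKO replicate 1) with each library left out in turn.

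Gene size and position moved with the direction of change. When the 12474 protein-coding genes were divided into quintiles by the length of their longest annotated transcript, the share that rose was 7.41%, 13.5%, 18.7%, 26.0% and 41.2% from the shortest to the longest quintile. The share that fell was 39.04%, 29.9%, 25.3%, 18.3% and 11.5%. The median log2 difference ran from -0.37 to 0.42. In single libraries the shortest and longest quintiles had medians of -0.43 and 0.44 in cKO replicate 1, -0.19 and 0.31 in cKO replicate 2 and -0.45 and 0.43 in cKO replicate 3. Among the WT libraries, measured from their own mean, they were 0.04 and 0.00 in replicate 1, -0.06 and 0.07 in replicate 2 and 0.02 and -0.06 in replicate 3. WT replicate 2 therefore leaned with the cKO libraries, and it also held the most structural RNA of the WT libraries (34.6%), whose part was not tested. cKO replicate 2, with the least, showed the same order of quintiles as the other cKO libraries. At day 5 the 2 quintiles had median log2 differences of -0.10 and 0.15.

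With cKO replicate 2 alone, the share that rose was 5.41% in the shortest quintile and 14.3% in the longest, and without it 7.41% and 40.4%. Span on the chromosome gave a like order, with 10.1% of the quintile of shortest genes rising and 37.9% of the quintile of longest. Genes with few neighbours rose more often: 33.4% of the quintile with 1 to 7 protein-coding genes within 500 kb, themselves counted, against 11.2% of the quintile with 31 to 73. Falls ran the other way, 17.5% against 33.6%. Length and neighbour number overlapped but neither order vanished within the other. In the longest transcript quintile, 50.2% of genes with the fewest neighbours rose and 24.4% of those with the most, and in the shortest quintile 10.9% and 6.20%. By level, falls ran from 15.6% in the quintile of lowest mean CPM to 35.6% in the highest, while rises were 19.2% and 17.9%.

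**Figure D5:**
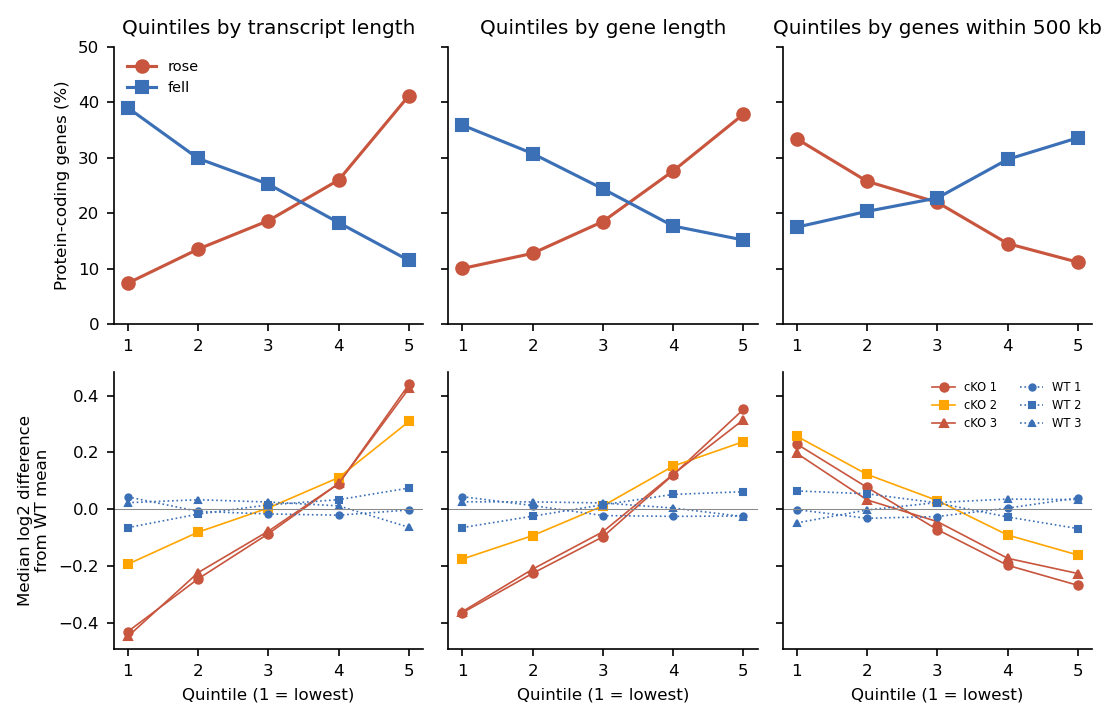
Upper panels give the percent of protein-coding genes that rose (red) or fell (blue) in quintiles by transcript length, gene length and number of protein-coding genes within 500 kb. Lower panels give the median log2 difference from the WT mean in each library, cKO replicates 1 and 3 in red, cKO replicate 2 in orange and WT dotted in blue. All 3 cKO libraries rise from short to long transcripts, from -0.43, -0.19 and -0.45 to 0.44, 0.31 and 0.43, while the WT libraries stay between -0.06 and 0.07.

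Between chromosomes, the share of protein-coding genes that rose went from 14.5% on chromosome 8 to 31.3% on chromosome 13, leaving aside chromosome Y with 3 genes. Neighbouring tested genes sometimes rose in a row. Besides the Zfp runs above, the longest was 12 genes on chromosome 10, from Ppil4 to Epm2a (7792891 to 11459644, GRCm38). Ust, a sulfotransferase of the matrix sugars, was at 15.9, 14.9 and 19.7 CPM in WT against 71.9, 70.6 and 54.0 CPM in cKO there, Sash1, a scaffold protein, at 168, 179.7 and 203 CPM in WT against 344, 371 and 334 CPM in cKO and Tab2, an adaptor of the kinase TAK1, at 37.6, 34.6 and 26.8 CPM in WT against 82.8, 103 and 75.7 CPM in cKO. A run of 8 on chromosome 1 reached from Rb1cc1 to Sgk3 (6206197 to 9900845). Rb1cc1, an autophagy scaffold, was at 2.60, 1.61 and 1.74 CPM in WT against 23.1, 3.62 and 19.1 CPM in cKO, far lower in cKO replicate 2 than in the other cKO libraries (log2 difference 2.89, adjusted p = 0.0256). Its call was lost with any library but cKO replicate 2 left out (adjusted p from 0.0631 to 0.129). The longest runs of falls had 7 genes, from Brd2 to H2-Ab1 on chromosome 17 (34112023 to 34269419) and from Coq9 to Kifc3 on chromosome 8 (94838321 to 95202812). The first lies in the major histocompatibility region and holds Psmb8, Psmb9, Tap1 and Tap2, which are usual markers. In the second, Coq9, of coenzyme Q synthesis, was at 72.6, 63.1 and 71.4 CPM in WT against 33.5, 39.1 and 36.7 CPM in cKO. The next longest runs of falls had 6 genes, and there were 7 of them.

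Promoters were compared by the letters in the window from 250 bases before to 50 after the start, for 9801 tested protein-coding genes with an entry in RefSeq's table. The CCAAT box was in 44.1% of the promoters of genes that fell, 36.2% of those that rose, 37.7% of those not called and 37.9% of all 27025 promoters. The ETS site was in 18.7%, 13.4%, 18.9% and 9.12%, so it was least common among tested genes in those that rose. E2F sites were in 14.9% of falls and 11.1% of rises, SP sites in 68.5% and 65.4%, E-boxes in 14.8% and 15.6%, and CHR matches in 12.7% and 10.0%. Among the 9801 tested promoters those shares were 12.8% for E2F, 66.4% for SP, 14.8% for the E-box and 11.1% for CHR. Among all 27025 promoters they were 6.93%, 35.9%, 16.1% and 18.1%, but those windows had a lower median GC content (52.7% against 61.3%). Of 67 mitochondrial ribosomal protein promoters 34.3% held an ETS site, of 32 proteasome promoters 31.3%, and of 65 respiratory chain promoters 23.1%. The ETS share of all tested promoters was 17.7%. Of the 99 promoters of Zfp genes that rose 49.5% held a CCAAT box and 39.4% an SP site, and of all 248 tested Zfp promoters 45.6% and 46.0%. The CHR match, an element known from late cell cycle genes, was in 21.1% of the 109 promoters of genes that fell at least 8-fold, but in 10.0% of the 80 outside the usual markers. The CCAAT box was in 45.9% of those 109 promoters and in 33.8% of those 80. Falls of all sizes were not split in this way. Median GC content of the windows was 63.0% for rises and 61.0% for falls.

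The same comparison at day 5, where Lmnb1 was already lower (log2 difference -2.68), gave 1 call in 14729 features (0.00679%), Lmnb1 itself. The change at day 9 was therefore tested against that at day 5 on all 12 libraries. Of 15323 features, 394 changed more positively at day 9 (2.57%) and 787 more negatively (5.14%), 7.71% in all. Of the genes that rose at day 9, 2976 were in that test and 388 differed between days in the same direction, and of those that fell, 3214 were tested and 761 differed. Of the 146 genes named here with values 86 differed between days, Gng4, Cd93 and Hip1 among them. The day 9 calls and most named genes were picked by day 9 values that also enter this test. That choice favours a difference between days, so their shares are not to be read against the 7.71%. Lmnb1 did not pass (difference 0.30, adjusted p = 0.476). Respiratory chain genes named here mostly did not pass on their own, with Atp5b at -1.03 (adjusted p = 0.106) and Ndufc2 at -1.42 (adjusted p = 0.0447). The counts of 394 and 787 depended on single libraries: without day 5 cKO replicate 2 they were 1176 and 1234, and without day 9 WT replicate 2 they were 232 and 524. The fit of day 5 alone was not repeated with libraries left out. The part of day 5 cKO replicate 2 in its low number of calls was therefore not tested. The days were deposited in separate tables, so no level was compared across them.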

How the data were processed

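Polyadenylated RNA of sorted EYFP-positive mouse neural progenitor cells was sequenced in 12 libraries, of which the 6 of day 9 are described here. The authors made expected counts per gene, with RSEM and Bowtie2 on mm10 named in the submitters' processing notes, and deposited them in 1 table a day. The authors also deposited TPM values of the same genes, which rest on the same reads. How Bowtie2 and RSEM were set, and whether strand was used, is not given in the sources used here.

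Expected counts were rounded to whole numbers, genes passed edgeR's filterByExpr, and libraries were scaled by TMM. The 3 cKO libraries were compared with the 3 WT libraries by edgeR's quasi-likelihood test (R 4.3.3, edgeR 4.0.16, limma 3.58.1, DESeq2 1.42.0), with Benjamini-Hochberg adjustment over all genes and a threshold of 0.05. Totals were 24412935, 24662809 and 24501672 counts in WT and 13315273, 22988447 and 13709733 in cKO. The SE of a log2 difference covers counting error and the spread between libraries. The day difference was fitted as an interaction over all 12 libraries. On simulated day 9 counts of 14142 genes the test recovered 82% of 4-fold rises, 76% of 4-fold falls, 44% of 2-fold rises and 22% of 2-fold falls, with 8 false calls. Few genes were changed there, as many up as down, and the noise was independent between genes. In the data 43.6% of features were called and cKO replicate 2 stood apart, so these rates do not give the errors of the real calls.

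The genes named were Lmnb1, Lmna, Lmnb2 and Lbr, the 12 largest rises and falls by fold and the 10 largest by CPM difference outside 8 usual marker lists (mean of at least 5 CPM, no overlap, also called without structural RNA, no provisional symbols), up to 3 members of each function list by adjusted p, and members of the longest runs. Some that met the rule are not printed. The comparison, the lists and the rule were chosen with earlier results of these data known. Alternatives were DESeq2, limma-voom, RLE and upper quartile scaling, filters, structural RNA removed, equal depth, log2(TPM + 1) and log2(TPM + 0.1) with limma-trend, the replicate number as a block, and libraries left out. Fits on protein-coding genes alone, in counts and in TPM, were added after seeing the data. Gene positions are from GRCm38, and promoters from RefSeq on GRCm38.p6.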

Additional observations from a re-analysis of the deposited data

Results flagged for a closer look

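A change at day 9 that differed from the change at day 5 was found for 86 of the 146 genes named above, by edgeR's test of the difference with Benjamini-Hochberg adjustment over all genes (adjusted p from 2.48e-05 to 0.0492). Over all features, 1181 of 15323 differed, which is 7.71%. Most named genes were picked by day 9 values that also enter this test, which favours a difference. The values in brackets are the log2 change at day 9 minus the log2 change at day 5. The cause of these differences was not tested.

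The most positive of the 36 rises were Gng4 (7.68), Fa2h (5.54), Cbln2 (5.21), Fam129a (4.94), Pgm5 (4.48), Tmem163 (4.39), Plcg2 (4.27), Neu4 (4.16) and Epha3 (4.14). Smaller rises followed for Col11a2 (4.12), Naaa (3.84), Tubb4a (3.61), Npas2 (3.46), Miat (3.37), Tnr (3.30), Col9a1 (3.04), Cav1 (2.94) and Nfasc (2.58). Next came Cdkn1c (2.44), Slc1a1 (2.43), Slc30a10 (2.42), Kcnk2 (2.33), Adam23 (2.32), Cyfip2 (2.22), Ttyh1 (2.17), Sema4d (2.16) and Elovl7 (2.16). The rest were Pde4d (2.14), Firre (2.01), Ust (1.63), Mt1 (1.45), Arhgap23 (1.40), Sat1 (1.27), Cpe (1.07), Abcc5 (0.99) and Ntrk2 (0.88).

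The most negative of the 50 falls were Cd93 (-5.79), Rab26 (-5.18), Ngfr (-4.73), Igfbp4 (-4.72), Lgals1 (-4.36), Tuba1c (-4.33), Tle6 (-4.32), Fndc1 (-4.02) and Igfbp2 (-3.82). After these stood Fzd10 (-3.52), Timp4 (-3.49), Adam12 (-3.37), Trf (-3.27), Txn1 (-3.08), Sphk1 (-2.99), Fancd2 (-2.96), Tagln2 (-2.92) and Cdh22 (-2.75). Further down were Fanci (-2.74), Ctsc (-2.64), Gstt1 (-2.59), Arhgap19 (-2.56), Hip1 (-2.52), Kcnip3 (-2.50), Phf19 (-2.48), Cdh4 (-2.39) and Hmgb2 (-2.39). Values nearer 0 belonged to Tubb6 (-2.38), Mest (-2.28), Trib2 (-2.17), Mmp15 (-2.09), Gas1 (-1.93), Ntn4 (-1.93), Mthfd1l (-1.84), Dpf3 (-1.82) and Cdkn2c (-1.78). Next in order were Nme2 (-1.69), H2afx (-1.60), Sdc3 (-1.56), Rgs3 (-1.50), Hmgn2 (-1.49), Aaas (-1.48), Glb1 (-1.44), Ndufc2 (-1.42) and Psmc3ip (-1.32). The smallest were found for Serpine2 (-1.29), Slc1a4 (-1.27), Hspb6 (-1.11), Cs (-0.96) and Cpt1a (-0.80).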

How the results depend on the processing

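Depth outside structural RNA limits the low genes of cKO replicates 1 and 3. Of 146 named genes, DESeq2, RLE and upper quartile scaling, structural RNA removed and a filter of 1 CPM in 3 libraries changed no call. The genes ranked by fold or CPM difference were picked as also called without structural RNA, so that result was fixed for them. List members were picked by small adjusted p, which favours calls that stay. The 3070 rises became 1422 with cKO replicate 2 alone, and 180 and 226 with TPM over all features at pseudocounts of 0.1 and 1. The 3308 falls became 1922 with cKO replicate 2 alone, 1274 and 1269 with those TPM fits, and 2011 with TPM of protein-coding genes alone. Why the TPM scales disagree was not tested. With 1 library left out, rises ranged from 1760 (WT replicate 2) to 3666 (cKO replicate 2) and falls from 2279 (cKO replicate 1) to 3841 (cKO replicate 2). Lists with more rises than falls numbered 17, and 31 with TPM of protein-coding genes, 2 and 3 with TPM over all features and 9 with no low-count filter, and the 29 lists with more falls became 17 with TPM of protein-coding genes. With the replicate number as a block, 2748 rises and 2766 falls were called and the day differences of 394 and 787 became 81 and 241. Deviations of same-numbered libraries at day 9 correlated at -0.001, -0.200 and -0.063, and those of differently numbered ones at -0.160 to 0.191. Each deviation is from a mean of 3 libraries, so these values cannot tell whether the number pairs samples. With 1 of 12 libraries left out the day differences ranged from 232 to 1176 and from 524 to 1234. The longest minus the shortest quintile differed by 0.539 (transcripts) and 0.449 (genes) in median log2 difference with cKO replicate 2 alone, against 0.792 and 0.657. The fewest minus the most neighbours gave 0.475, 0.407 with TPM of protein-coding genes, and from 0.430 to 0.559 with libraries left out. Signs reversed, at pseudocounts of 0.1 and 1 with TPM over all features, for Tuba1a (-0.13 and -0.13), Bcl7a (-0.22 and -0.21), Mars2 (-0.10 and -0.043), Gas5 (-0.59 and -0.59), Ulk2 (-0.049 and -0.038), Wipi1 (-0.15 and -0.13), Nr1d1 (-0.25 and -0.23) and the median of RGS proteins relative to all genes (0.029 and 0.18, and 0.10 with TPM of protein-coding genes). The cause was not tested.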
